A study of Mus musculus with 4 samples.

Results

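T helper 17 (Th17) cells were examined in T cells sorted from mouse colorectal tumors and from the tumor-free cecum beside them. The cells are those that carry the label Th17 in the authors' annotation, which numbered 424 of 15621 labelled cells, of which 131 came from the cecum and 293 from the tumor. The tumors grew from AKP organoids, an engineered colorectal cancer line with Apc-/- and Trp53-/- among its alleles, and were taken 4 weeks after the organoids were transplanted into the cecal wall. Nuclei of the sorted cells went through a droplet assay that profiles RNA and accessible chromatin (ATAC) together, and the ATAC fragments of 1 library from the cecum and 1 from the tumor were used here. Both tissues came from tumor-bearing hosts, so the cecum was a neighbouring tissue and not that of a tumor-free mouse, and the host genotype and number of animals behind each library are not given in the sources used here. The labels were set from the RNA of the same nuclei, so accessibility did not set the labels, although both were read from the same nuclei and cells had also been filtered on the depth of their ATAC fragments and on how far these gathered at start sites.

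Th17 cells are CD4+ effector T cells of barrier tissues. They depend on signals through the receptors for IL-23 and IL-1, and they release IL-17A, IL-17F and IL-22, which act on epithelium and recruit neutrophils. In the gut the same cytokine program is also used by a set of γδ T cells, and Treg cells that make IL-10 share part of it. Th17 cells were therefore set beside the labels Rorgt gdT (438 cells of the cecum, 273 of the tumor), IL10+ Treg (996 and 387) and Mucosal Th1 (904 and 196), the last being CD4+ cells that use the factor T-bet.

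Of labelled cells, Th17 cells made up 1.83% for the cecum (95% interval 1.53 to 2.17) and 3.46% for the tumor (3.08 to 3.87). Among cells with any of the 9 CD4+ labels these shares were 4.26% (3.58 to 5.04) and 9.57% (8.55 to 10.7), so the Th17 share was higher in the tumor library under both denominators. These are shares of 1 library each, and tissue and library cannot be told apart. Th17 cells of the cecum gave 870836 fragments and those of the tumor 2339396, at medians of 4970 and 6327 per cell, and paired values are given below for the cecum first and the tumor second. Accessibility is given as FPM, the fragments with an end in a window per 1000000 fragments of that label, and the window of a gene is its RefSeq span with 5 kb on each side. Gene positions are those of GRCm38.p6. All intervals are exact 95% intervals that cover counting error only, and with 1 library per tissue no test was possible. A group of 16 labels with at least 50 cells in each library was used for ranks. Of 84 barcodes labelled in both libraries, 2 were labelled Th17 in one of them and 0 in both.

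The promoters of 4 genes on which the type 17 program turns are shown here because their windows could be counted directly, and because the half-site AGGTCA that ROR factors recognise, or its reverse TGACCT, was found in each. A second Ccr6 start, the Il22 promoter and both Il1r1 promoters held neither. Each sequence is the RefSeq promoter of GRCm38.p6, the same build as the mm10 reference of the files, written 5′ to 3′ from 250 bases before the start site to 50 after it, with the half-site in capitals.
Il17a, chr1:20730655-20730954, plus strand, half-site 120 bases before the start: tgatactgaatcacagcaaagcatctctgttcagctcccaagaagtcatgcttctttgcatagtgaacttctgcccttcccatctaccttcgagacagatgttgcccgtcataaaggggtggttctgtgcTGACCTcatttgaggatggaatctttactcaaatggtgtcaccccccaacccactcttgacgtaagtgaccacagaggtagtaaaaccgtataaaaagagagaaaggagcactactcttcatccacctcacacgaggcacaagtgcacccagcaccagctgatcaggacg
Il17f, chr1:20784221-20784520, minus strand, half-site 58 bases before the start: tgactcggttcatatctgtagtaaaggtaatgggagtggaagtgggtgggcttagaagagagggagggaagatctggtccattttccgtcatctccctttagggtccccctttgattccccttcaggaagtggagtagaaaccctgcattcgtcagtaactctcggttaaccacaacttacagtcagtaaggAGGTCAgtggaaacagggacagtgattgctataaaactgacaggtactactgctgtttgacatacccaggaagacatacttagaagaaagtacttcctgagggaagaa
Il23r, chr6:67491806-67492105, minus strand, half-sites 229 and 66 bases before the start: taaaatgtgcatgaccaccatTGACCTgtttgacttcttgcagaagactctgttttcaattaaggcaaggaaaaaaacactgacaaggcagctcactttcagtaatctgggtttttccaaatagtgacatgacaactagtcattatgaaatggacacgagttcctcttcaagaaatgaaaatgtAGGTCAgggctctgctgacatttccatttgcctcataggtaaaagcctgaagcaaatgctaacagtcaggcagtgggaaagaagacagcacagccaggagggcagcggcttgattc
Ccr6, chr17:8235793-8236092, plus strand, half-site 44 bases before the start: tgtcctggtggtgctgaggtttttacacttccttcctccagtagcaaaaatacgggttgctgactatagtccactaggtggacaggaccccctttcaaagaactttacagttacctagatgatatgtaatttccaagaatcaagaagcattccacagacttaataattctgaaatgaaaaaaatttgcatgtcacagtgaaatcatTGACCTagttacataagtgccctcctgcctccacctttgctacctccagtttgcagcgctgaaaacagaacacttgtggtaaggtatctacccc

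Letters of this length recur often. AGGTCA on either strand was found in 5340 of 32851 RefSeq promoters of the same length (16.3%), in 7 of the 22 promoters held for type 17 cytokine, receptor and factor genes (31.8%), and in 22 of 116 promoters held for 79 of the genes most accessible in Th17 cells (19%). The AP-1 letters TGACTCA, or TGAGTCA on the other strand, were in 5.20% of all promoters, in 0 of the 22 type 17 promoters and in 5.17% of the 116. The T-box letters TCACACCT, or AGGTGTGA on the other strand, were in 1.28% of all promoters, in 1 of the 22 (4.55%) and in 1.72% of the 116. A match describes the letters and is not evidence of binding. At the Il17a promoter shown above, Th17 cells had 41.3 and 31.6 FPM, against 18.5 and 35.8 in Rorgt gdT, 9.81 and 4.03 in IL10+ Treg, and 0.758 and 0.772 in Mucosal Th1. The Il17f promoter had 17.2 and 14.1 FPM in Th17 cells, 19.4 and 22.1 in Rorgt gdT, 5.25 and 1.1 in IL10+ Treg, and 0.569 and 0.772 in Mucosal Th1. The Il23r promoter had 17.2 and 10.3 FPM in Th17 cells, 17.1 and 13.2 in Rorgt gdT, 5.95 and 10.6 in IL10+ Treg, and 0.19 and 0.772 in Mucosal Th1. The Ccr6 promoter was little open at 3.44 and 8.55 FPM. The whole Ccr6 window was nevertheless more accessible in Th17 cells than in any other ranked label, as described below.

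The label was first checked against its markers. Il17a, the cytokine that names these cells (chr1:20730905-20734496), had 82.7 (64.7 to 104) and 68.0 FPM (57.8 to 79.4) in Th17 cells. Rorgt gdT had 39.3 (31.4 to 48.6) and 72.4 (61.5 to 84.8), IL10+ Treg 23.5 and 13.6, and Mucosal Th1 2.84 and 1.54. Th17 cells thus ranked first of 16 labels in the cecum and second, behind Rorgt gdT, in the tumor, where the intervals of both labels overlap. At least 1 Il17a fragment was found in 29.0% of Th17 cells of the cecum (21.4 to 37.6) and in 32.8% of those of the tumor (27.4 to 38.5), at median depths of 4970 and 6327 fragments. This share was 13.7% and 36.3% in Rorgt gdT and 8.84% and 7.24% in IL10+ Treg. It was 1.44% and 1.02% in Mucosal Th1, with median depths of 4425.5 and 5090, and 0% and 0.73% in CCR7+ CD8, a naive-like label that should lack the open gene, with 7061 and 4633, where the interval of the 0 of 149 cells reaches 2.45%. When each cell was thinned to 2000 fragments, which left out 29 Th17 cells of the cecum and 47 of the tumor, the share was 14.0% and 12.0% in Th17 cells and 7.13% and 13.2% in Rorgt gdT, and a cell without a fragment at this depth cannot be called closed.

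Cd4, the coreceptor gene, had 83.8 and 70.5 FPM in Th17 cells, 110 and 99.6 in Mucosal Th1 and 21.7 and 31.0 in Rorgt gdT. A Cd4 fragment was found in 35.1% and 33.4% of Th17 cells, and in 36.2% and 26.3% of CCR7+ CD8 cells. With cells thinned as for Il17a, these shares were 14.4% and 11.9% in Th17 cells and 12.3% and 10.8% in CCR7+ CD8. Cd8a had 9.19 and 2.56 FPM, places 12 and 16 of the 16 labels, and Foxp3, the Treg factor, had 35.6 and 28.6, close to the median of the other labels at 35.8 and 29.3. Trdc, the δ chain constant gene, had no fragment for the cecum and 0.855 FPM for the tumor. Markers of other cells the sort could hold lay below the median of the other labels: the summed level of 6 B cell genes was 147 and 157 FPM (median 157 and 166), of 6 myeloid genes 200 and 171 (215 and 198), and of 10 epithelial genes 104 and 133 (151 and 162). Of these lists, 1 myeloid gene was at 0 in the cecum and 1 epithelial gene was at 0 in each library. The summed level of 6 T cell genes, 805 and 823 FPM, lay near the median of the other labels (816 and 820). The markers therefore go with the label, except that Cd4 set Th17 cells apart from Rorgt gdT but hardly from CCR7+ CD8.

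**Figure D1:**
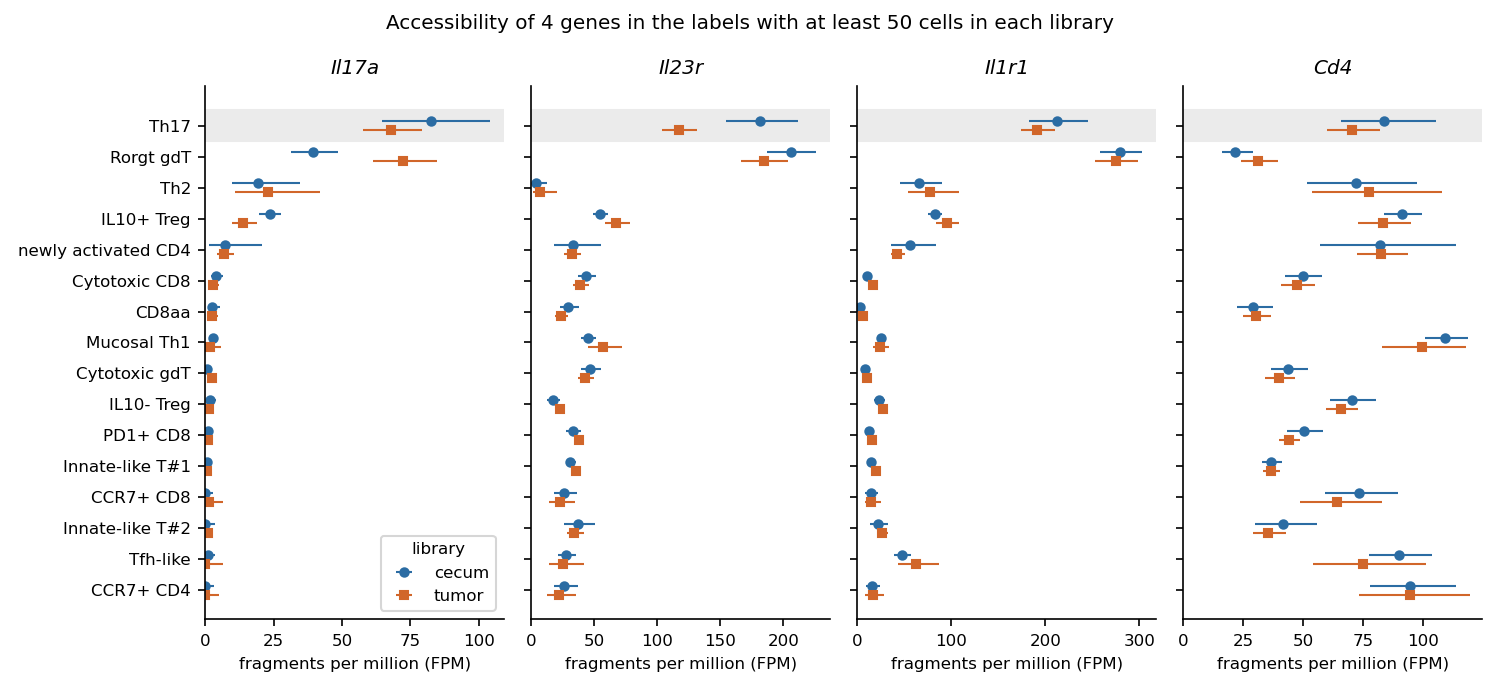
Accessibility of Il17a, Il23r, Il1r1 and Cd4 (horizontal axis, FPM) in the 16 labels with at least 50 cells in each library, for the cecum (circles) and the tumor (squares), with exact 95% intervals of the counts. Th17 cells, shaded, have 82.7 and 68.0 FPM at Il17a, above Rorgt gdT (39.3) in the cecum and below it (72.4) in the tumor, and have 83.8 and 70.5 FPM at Cd4 where Rorgt gdT has 21.7 and 31.0.

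Among the cytokine genes, Il17f had 29.9 and 24.8 FPM, close to 26.8 and 32.9 in Rorgt gdT. Il22, whose product drives epithelial defence, had 17.2 (9.64 to 28.4) and 17.5 FPM (12.6 to 23.8) and was highest in Th17 cells in both libraries, followed by newly activated CD4 at 11.7 in the cecum and Rorgt gdT at 8.94 in the tumor. Il22 was carried by few fragments, 15 and 41, and 9.92% and 10.6% of Th17 cells had at least 1. Il21, a cytokine of helper cells in follicles, had 25.3 and 37.6 FPM, below the 65.7 and 55.3 of Tfh-like cells. Ccl20, the ligand of CCR6, had 20.7 and 20.1 FPM, against 29.6 and 21.6 in IL10+ Treg and 1.33 and 0.772 in Mucosal Th1. Csf2, which encodes GM-CSF, had 18.4 and 22.2 FPM and ranked 7th and 6th of the 16 labels.

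Among the receptor genes, Il23r and Il1r1 were second in Th17 cells and Ccr6 was first. Il23r, one chain of the IL-23 receptor, had 181 (154 to 212) and 117 FPM (104 to 132), second to Rorgt gdT at 206 and 184 and above IL10+ Treg at 54.5 and 67.5. Il1r1, the IL-1 receptor, had 212 and 192 FPM, again second to Rorgt gdT at 279 and 275, with Mucosal Th1 at 25.2 and 23.9. Ccr6, the chemokine receptor that follows CCL20 to the mucosa, had 90.7 and 97.9 FPM and ranked first in both libraries, above IL10+ Treg at 62.4 and 73.3. Of the transcription factor genes, Rora, a nuclear receptor gene, had 947 and 939 FPM, and Maf, a factor shared by IL-10 and IL-17 producers, 121 and 116, both near the values of several other CD4+ labels. Stat3, which carries the IL-6 and IL-23 signals, ranked 15th in both libraries at 247 and 274 FPM, near the bottom of the order of labels.

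Th17 cells were then compared with Rorgt gdT. A gene was called where the ratio was at least 2-fold the same way in both libraries and both intervals excluded no difference; log2 ratios carry a pseudocount of 1 FPM, and the intervals in brackets are of the count ratio itself. Of 12376 genes with at least 50 fragments over both labels in each library, 62 were higher in Th17 cells (0.501%) and 140 were lower (1.13%), while the median log2 ratio of all genes was 0.00 and 0.03. With 1 kb around gene ends as the window the counts were 6 and 41, and with a minimum of 200 fragments 10 and 42. Themis, needed for αβ T cell selection, had 110 and 144 FPM in Th17 cells, against 21.3 and 25.9 in Rorgt gdT, a log2 ratio of 2.32 and 2.43. Cd6, a surface molecule of mature T cells, had 180 and 150 FPM against 30.1 and 43.3, and Cd28, the costimulatory receptor, 188 and 161 against 60.1 and 52.7, a log2 ratio of 1.63 (1.31 to 1.99) and 1.59 (1.30 to 1.93). Cd4 was also called, with log2 ratios of 1.90 (1.40 to 2.51) and 1.16 (0.76 to 1.62), as were Btla, an inhibitory receptor, Ubash3a, a suppressor of T cell receptor signals, and Galnt9, St8sia1 and Ms4a6c.

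The genes lower in Th17 cells were led by those of the γδ lineage. Trdc lies inside the Tcra locus and is removed when Tcra rearranges, and its 0 fragments in Th17 cells of the cecum stood against 48.6 FPM in Rorgt gdT, at least 14.1-fold lower with a floor of 3 fragments. In the tumor 2 Trdc fragments in Th17 cells stood against 86, a log2 ratio of -4.48 (-8.63 to -3.67). Sox13, a factor of γδ cells that make IL-17, had 4.59 and 8.55 FPM in Th17 cells against 108 and 129 in Rorgt gdT, a log2 ratio of -4.29 (-6.45 to -3.18) and -3.77 (-4.65 to -3.26). Blk, a kinase of the same cells, had 78.1 and 60.7 FPM against 246 and 274, and Zbtb16, the factor PLZF of innate-like T cells, 90.7 and 71.4 against 522 and 473. These were 4 of the 5 tested members of a list of 6 γδ genes. Clnk, Sema6a, Kcnk1, Spry2, Mtcl1 and Plekhg1 were the other genes named on this side, with Kcnk1 at 5.74 and 6.41 FPM against 105 and 98.8.

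Among the type 17 genes few calls were made, as among all genes. Of 3 tested cytokine genes 0 were called, of 11 transcription factor genes 0, and of 8 receptor genes 1, Il6ra, the IL-6 receptor, which was higher in Th17 cells (113 and 112 FPM against 50.4 and 54.6). Il23r had a log2 ratio of -0.18 (-0.45 to 0.08) and -0.65 (-0.88 to -0.43), and Il1r1 -0.39 (-0.64 to -0.16) and -0.52 (-0.70 to -0.34), both below the fold of a call. Il17a itself differed by a log2 ratio of 1.05 (0.60 to 1.54) and -0.09 (-0.42 to 0.24). Il21, Il22 and Ccl20 had too few fragments over both labels to be tested. At Il21, Rorgt gdT had 12 and 18 fragments against 22 and 88 in Th17 cells. The medians of the type 17 lists on the log2 scale were 0.15 and -0.40 for cytokines, -0.06 and 0.04 for receptors, and 0.17 and -0.02 for factors.

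Against IL10+ Treg, Il17a and Il17f were higher in Th17 cells and Foxp3 and Il10 lower. Of 13453 genes, 129 were higher in Th17 cells (0.959%) and 65 lower (0.483%). With scaling by fragments near gene ends, which shifts the median of all genes here by 0.10 and 0.08 on the log2 scale, the split was 167 higher and 49 lower, and with 1 kb around gene ends as the window it turned to 17 higher and 34 lower. Il17a had a log2 ratio of 1.77 (1.38 to 2.24) and 2.24 (1.80 to 2.88), and Il17f of 1.47 (0.83 to 2.25) and 2.16 (1.49 to 3.37), which made 2 of 4 tested cytokine genes. Il9, a cytokine that Th17 cells can share with other effectors, had 57.4 and 31.2 FPM against 13.0 and 10.3, and Il5, a type 2 cytokine, 20.7 and 22.7 against 6.48 and 5.13. Their promoters held 0 and 0 (Il9) and 0 and 2 (Il5) fragments in Th17 cells, so the signal of these windows lay almost wholly elsewhere. Of 8 receptor genes 0 were higher and 1 was lower, Il6st, the shared signal chain of the IL-6 family (56.3 and 42.7 FPM against 121 and 98.6). Il1r1 had 212 and 192 FPM against 82.5 and 95.3, a log2 ratio of 1.35 (1.11 to 1.61) and 1.0 (0.78 to 1.23), and Il23r a ratio of 1.72 (1.45 to 2.02) and 0.79 (0.52 to 1.07). Both were thus higher in each library but short of the fold of a call in the tumor, Il1r1 only because of the pseudocount. Of 11 factor genes 0 were called in either direction, which with so few genes called overall says little about them.

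On the Treg side, 4 of 16 tested Treg genes were called lower in Th17 cells and 0 higher. Foxp3 had 35.6 and 28.6 FPM against 102 and 79.2, and Il10 had 48.2 and 47.4 against 153 and 146, a log2 ratio of -1.65 (-2.15 to -1.22) and -1.60 (-1.93 to -1.31). Lrrc32, which holds latent TGF-β on the Treg surface, had 4.59 and 10.7 FPM against 36.8 and 43.3, and Itgb8, an integrin chain that activates TGF-β, 6.89 and 16.7 against 39.9 and 41.4. Il10ra, the receptor chain through which IL-10 acts, was lower too, at 25.3 and 21.4 FPM against 56.9 and 50.2, and Cxcr5, a follicle homing receptor, at 51.7 and 44.9 against 120 and 126. Ctla4 and Ikzf2, the gene of Helios, stayed below the fold of a call, with log2 ratios of -0.31 and -0.59 for Ctla4 and -0.36 and -0.64 for Ikzf2. Genes outside the lists were led by Shisal2b on the higher side (41.3 and 47.4 FPM against 3.33 and 3.67), followed by Slc22a4, an organic cation transporter gene, and Themis, Pdlim1, Pawr, Trat1, Ube2e2 and Gm40755; the windows of Pawr and Gm40755 overlap, so they share fragments, and the log2 ratio of Trat1 in the cecum was -0.43 with 1 kb around gene ends as the window. On the lower side Sh3gl3 led with 14.9 and 15.4 FPM against 114 and 115, followed by Fmnl2, Tmem26, Cnksr3, Bhlhe41, Ptprj and Ankrd55.

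Against Mucosal Th1, Il17a, Il1r1, Ccr6 and Il23r were higher in Th17 cells, and Tbx21, Ifng, Il12rb2 and Ccl5 lower. Of 12958 genes, 108 were higher in Th17 cells (0.833%) and 36 lower (0.278%). The counts were 56 and 40 without cells of over 3 times the median depth, 13 and 8 in the window of 1 kb around gene ends, and 31 and 9 with a minimum of 200 fragments. Il17a led, with a log2 ratio of 4.44 (4.05 to 5.77) and 4.76 (3.58 to 8.52), the last resting on 2 fragments in Mucosal Th1. Of the type 17 receptor genes, Il1r1 had 3.03 (2.75 to 3.41) and 2.95 (2.47 to 3.58), Ccr6 had 1.92 (1.53 to 2.38) and 2.59 (2.0 to 3.40), and Il23r 1.99 (1.71 to 2.31) and 1.02 (0.66 to 1.43), so 3 of 8 receptor genes were called. Blk and Zbtb16, which were lower than in Rorgt gdT, were higher than in Mucosal Th1, where Blk had 8.72 and 11.6 FPM and Zbtb16 29.4 and 34.0, so Th17 cells lay between both labels at these genes. Il5 and Ltb4r1, a leukotriene receptor gene, were the other list genes called higher, Il5 again with almost no fragments at its promoter.

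Of 12 Th1 genes 4 were lower in Th17 cells and 0 higher. Tbx21, the gene of T-bet, had 54.0 and 38.0 FPM against 141 and 124, Ifng 9.19 and 20.9 against 45.7 and 44.0, Il12rb2, a chain of the IL-12 receptor, 62.0 and 54.7 against 170 and 161, and Ccl5, a chemokine of cytotoxic and Th1 cells, 11.5 and 16.2 against 65.0 and 58.7. Stat4, which carries the IL-12 signal, and Eomes were not called, with log2 ratios of -0.20 and -0.01 for Stat4 and 0.10 and -0.20 for Eomes. Il10ra was again lower in Th17 cells, against 58.6 and 51.7 FPM. Genes outside the lists that were higher in Th17 cells were Ppp1r14c (72.3 and 54.7 FPM against 3.41 and 2.32, the last from 3 fragments), Krt28, Shisal2b, Sgip1, Adamts16 and Ablim3, and those lower were Cacng8, Samd3, Mctp2, Gas7, Slamf7 and Olfr156, the last with a log2 ratio of 0.066 in the tumor when 1 kb around gene ends was the window. Krt28, a hair keratin gene, had 102 and 86.8 FPM over its window, of which a tile inside the gene, described below, held 72.3 and 51.7, and with 1 kb around the gene ends as the window its log2 ratio in the cecum was -0.65.

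**Figure D2:**
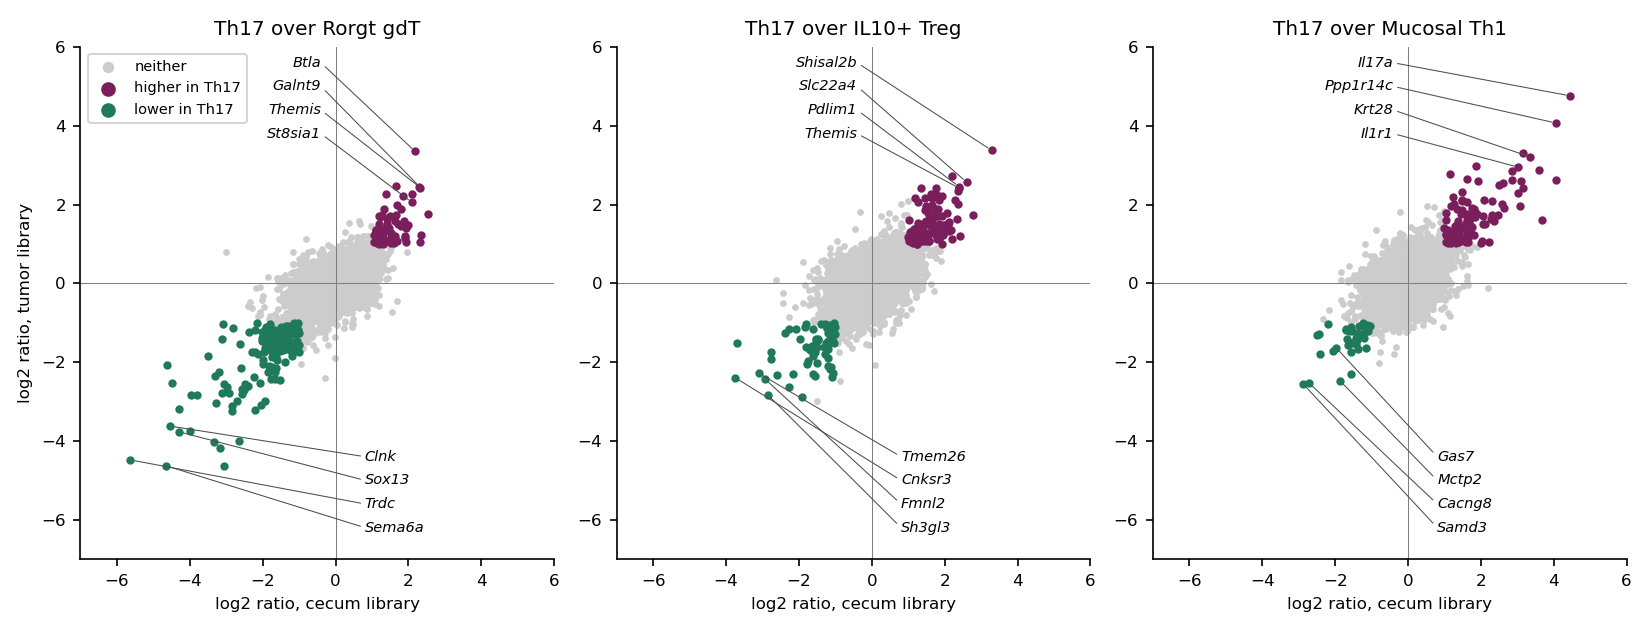
Log2 ratio of FPM of each tested gene in Th17 cells over Rorgt gdT, IL10+ Treg and Mucosal Th1, in the cecum (horizontal axis) against the tumor (vertical axis), with called genes in purple (higher) and green (lower) and 4 genes named on each side. Lower genes reach furthest against Rorgt gdT, where 140 were called, and Il17a lies at 4.44 and 4.76 against Mucosal Th1.

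The same cells stood out from all other ranked labels at few genes. Of 12850 genes, 126 had their highest FPM in Th17 cells in both libraries (0.981%), and for 11 of these the interval of the ratio to the next label excluded no difference in both. Adamts16, a secreted metalloprotease gene (chr13:70727798-70841845), came first with 108 and 91.0 FPM, where IL10+ Treg, the next label, had 41.5 and 61.6 and the median of the other labels was 3.47 and 6.85. It was followed by Vax2, Mast4, Sgip1, Nfatc2, Ccr6, Kcnmb4, Nebl, Pcdhga1 and Pcdhga12. Vax2 had 78.1 and 77.4 FPM against 48.6 and 44.2 in Rorgt gdT. Nfatc2, a factor downstream of the T cell receptor, had 401 and 469 FPM against 315 and 360, so its lead was only 0.35 (0.16 to 0.54) and 0.38 (0.25 to 0.52) on the log2 scale. The next label was Rorgt gdT or IL10+ Treg in both libraries for the first 7 of these genes. Both protocadherin genes share an overlapping cluster of windows and cannot be told apart. Both are among the 11, and further windows of this cluster, which share fragments, are among the 126. The counts of 126 and 11 are therefore of gene windows, and the separate loci are fewer.

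**Figure D3:**
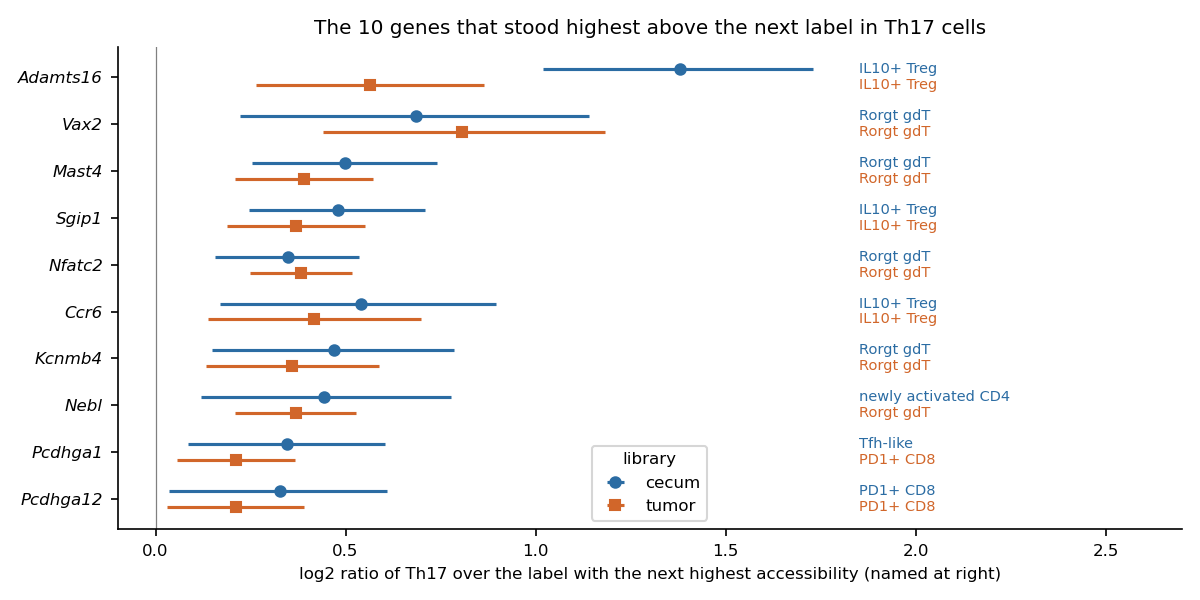
Log2 ratio of FPM in Th17 cells over the label with the next highest value (horizontal axis; points, with exact 95% intervals of the counts) for the 10 genes that rank first in Th17 cells, in the cecum (circles) and the tumor (squares), with the next label named at the right. Adamts16 has ratios of 1.38 and 0.56, while at Nfatc2 they are 0.35 and 0.38.

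Accessibility away from gene ends was counted in 500-bp tiles whose middle lies over 2 kb from both ends of every gene. Against Rorgt gdT, 177 of 13430 tiles were higher in Th17 cells (1.32%) and 502 lower (3.74%), or 83 and 300 without cells of over 3 times the median depth, 67 and 141 outside gene spans and 20 and 108 with at least 50 fragments. Against IL10+ Treg, 543 of 22317 were higher (2.43%) and 495 lower (2.22%), or 703 and 408 with scaling by fragments near gene ends. The balance turned under other choices, to 107 higher and 178 lower with at least 50 fragments, 268 and 278 without cells of over 3 times the median depth, and 167 and 172 outside gene spans. Against Mucosal Th1, 409 of 16324 were higher (2.51%) and 260 lower (1.59%), or 214 and 159 without those deep cells, 125 and 97 outside gene spans and 83 and 36 with at least 50 fragments. Between 62.1% and 71.9% of the tiles called lay inside gene spans, where 70.8% to 71.6% of those tested lay. The gene table gives spans only, so exon or intron is not stated.

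At the Il17a-Il17f locus, taken with 50 kb on each side, 7 of 9 tiles with enough fragments were higher than in Mucosal Th1, 9 of 15 than in IL10+ Treg, and 0 of 14 were called against Rorgt gdT in both libraries. Single libraries still showed differences from Rorgt gdT, as at the tile just after the Il17a start (chr1:20731001-20731500), with a log2 ratio of 1.75 (0.85 to 2.99) in the cecum against -0.33 (-1.18 to 0.47) in the tumor. A tile at the Il17a start (chr1:20730501-20731000) had 42.5 and 34.2 FPM in Th17 cells, 20.8 and 40.5 in Rorgt gdT, 11.2 and 5.13 in IL10+ Treg, and 0.758 and 0.772 in Mucosal Th1. A tile at -5.15 kb from the start (chr1:20725501-20726000) had 21.8 and 17.1 FPM against 12.9 and 17.9 in Rorgt gdT and 0.948 and 0 in Mucosal Th1, at least 7.38-fold higher in the tumor with the floor of 3 fragments. Of the 10 tiles here with at least 10 FPM in both libraries, a set chosen after the values were seen, the most open was 9.85 kb after the start (chr1:20740501-20741000), at 43.6 and 40.6 FPM against 23.1 and 31.5 in Rorgt gdT, 7.71 and 5.50 in IL10+ Treg and 13.6 and 8.49 in Mucosal Th1. This tile differs from the promoter in that Mucosal Th1 had it partly open. A tile at the Il17f start (chr1:20784001-20784500) had 14.9 and 14.1 FPM against 0.569 and 0.772 in Mucosal Th1. A tile 89.35 kb after the Il17a start was open to a like degree in all of these labels, from 23.1 to 33.7 FPM, and one 94.35 kb after it was as open in Mucosal Th1 (14.2 and 10.0 FPM) as in Th17 cells (14.9 and 10.3) but had 1.75 and 1.1 in IL10+ Treg.

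**Figure D4:**
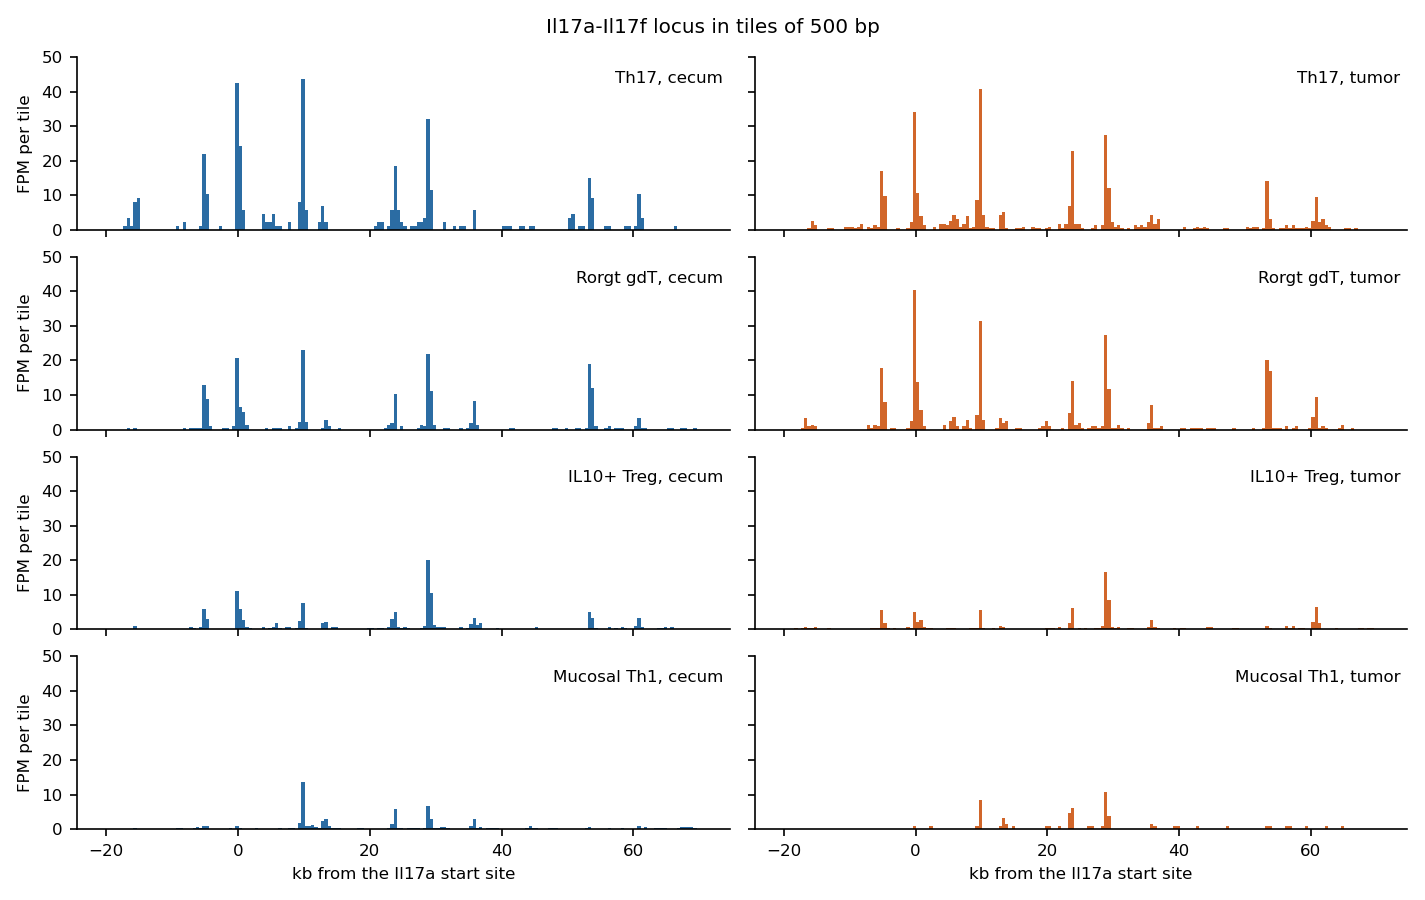
FPM per 500-bp tile (vertical axis) against the distance from the Il17a start site in kb (horizontal axis) for Th17, Rorgt gdT, IL10+ Treg and Mucosal Th1 cells (panels from top to bottom) of the cecum (left) and the tumor (right), from 20 kb before the start to 70 kb after it. Th17 and Rorgt gdT share the peaks at the Il17a start (42.5 and 34.2 FPM in Th17 cells) and 9.85 kb after it, while Mucosal Th1 has under 1 FPM at the start.

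Other type 17 loci gave fewer tiles. At Il23r a tile 8.60 kb inside the gene (chr6:67483001-67483500) had 43.6 and 20.1 FPM in Th17 cells, 38.9 and 26.3 in Rorgt gdT and 2.84 and 2.32 in Mucosal Th1. A tile between Il23r and Il12rb2 (chr6:67399501-67400000), 23.2 kb past the end of the former and 23.6 kb from the start of the latter, had 11.5 and 2.56 FPM against 23.5 and 26.2 in Mucosal Th1. The ratio stayed below the fold of a call in the cecum only because of the pseudocount. At Ccr6 a tile at -26.3 kb from the start (chr17:8209501-8210000) lay nearer to Cep43, 13.3 kb away. It had 32.2 and 17.1 FPM against 5.09 and 7.53 in Rorgt gdT and 1.33 and 1.54 in Mucosal Th1. IL10+ Treg had 19.6 and 21.3 there, and IL10- Treg had 23.0 in the cecum. At Il22 a tile at -32.2 kb from the start and 3.75 kb from Mdm1 (chr10:118172501-118173000) had 63.2 and 41.0 FPM, the highest of all labels, against 31.5 and 26.2 in Mucosal Th1. The next labels were Th2 at 42.2 FPM in the cecum and newly activated CD4 at 32.4 in the tumor. The intervals of the ratios to these labels include no difference.

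Of the tiles named by size over the whole genome, several lay near genes already described. A tile 19.1 kb from Ccl20 (chr1:83138001-83138500) had 33.3 and 29.5 FPM in Th17 cells and 30.6 and 26.4 in IL10+ Treg, against 13.0 and 7.06 in Rorgt gdT and 1.33 and 0.772 in Mucosal Th1. Tiles inside Slc22a15 (35.6 and 23.5 FPM against 0.758 and 0) and Krt28 (72.3 and 51.7 against 3.41 and 2.32) were also among the 4 highest against Mucosal Th1. Against IL10+ Treg, a tile inside Shisal2b had 19.5 and 21.4 FPM against 0.876 and 0. On the lower side, a tile inside Foxp3 (chrX:7584001-7584500) had 1.15 and 1.71 FPM against 29.2 and 20.5 in IL10+ Treg, so Th17 cells lacked most of the signal at this Treg site. A tile inside Sox13 (chr1:133404001-133404500) had 0 fragments in Th17 cells of both libraries against 23.6 and 24.0 FPM in Rorgt gdT, at least 6.85-fold and 18.7-fold lower. A tile inside Itga1, an integrin gene of resident T cells, had 1.15 and 0 FPM against 21.4 and 17.8 in Mucosal Th1.

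Of 23314 tiles, 387 were highest in Th17 cells in both libraries (1.66%), and for 2 of them the interval of the ratio to the next label excluded no difference in both. These were a tile 22.2 kb from Trib1 (chr15:59679001-59679500), with 27.6 and 20.1 FPM against 8.32 and 10.8 in Rorgt gdT, and a tile inside Sgip1 (chr4:102853001-102853500), with 24.1 and 18.4 FPM, where IL10- Treg (13.0 in the cecum) and IL10+ Treg (11 in the tumor) came next. Another of the first 6 (chr6:120486001-120486500) lay between Il17ra, the IL-17 receptor, which ends 2.52 kb away, and Tmem121b (chr6:120488939-120493946), at a similar distance on the other side. It had 48.2 and 32.9 FPM against 35.6 and 23.5 in Rorgt gdT. The profile over all genes, centred on the mean of the 16 labels, correlated between Th17 cells of both libraries with r = 0.677 over 11525 genes and 0.558 over 19689 distal tiles. Within a library, r of Th17 cells with Rorgt gdT was 0.374 and 0.497 over genes, with IL10+ Treg 0.284 and 0.374, and with Mucosal Th1 0.103 and 0.127. These were the labels compared above and not an order of the nearest labels. IL10- Treg had 0.223 and 0.321, newly activated CD4 0.110 and 0.240, and Th2 0.132 and 0.142, all above Mucosal Th1. Over distal tiles the order of Rorgt gdT and IL10+ Treg was the other way round, at 0.240 and 0.371 with Rorgt gdT and 0.347 and 0.434 with IL10+ Treg. IL10- Treg had 0.234 and 0.379 there, Mucosal Th1 0.209 and 0.191, and newly activated CD4 0.0707 and 0.313. These values are descriptions, since labels of 1 library share its depth and centring makes them depend on each other.

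In the last comparison Th17 cells of the tumor were set against those of the cecum. Of 6 cytokine, 8 receptor and 11 factor genes of the type 17 program 0 were called at 2-fold, a count that the small share called over all genes does not set apart, with median log2 ratios of -0.01, -0.03 and 0.02 beside -0.00 over all genes. Il17a had a log2 ratio of -0.28 (-0.69 to 0.14), Il17f -0.26 (-0.96 to 0.46), Il22 0.02 (-0.86 to 0.98) and Ccr6 0.11 (-0.27 to 0.50). None of these intervals excludes a moderate difference, at Il17a only towards lower values in the tumor. Il23r was the member furthest from 0, lower in the tumor by 0.63 (interval -0.92 to -0.34), outside the range of -0.33 to 0.79 that the other 15 labels covered; the same ratio in Rorgt gdT was -0.16 (-0.36 to 0.04). The Il17a ratio lay inside the range of the other labels, -0.95 to 1.09.

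Over all 12663 genes, 94 were higher in Th17 cells of the tumor (0.742%) and 24 lower (0.19%), and 62 and 9 in the window of 1 kb around gene ends, 4 and 1 with a minimum of 200 fragments and 185 and 89 with a minimum of 20. Of 118 tested list genes, 17 had an interval that excluded no difference, 7 higher and 10 lower (14.4%, beside 9.70% of all tested genes), and 7 of these lay outside the range of the other labels, as did 807 of all 12663 genes, so the list genes were not set apart by this count. Those 7 were Il23r, Il9, Ctla4, Prdm1, Ifng, Entpd1 and Tnfrsf18, and those named next beside Il23r were chosen after their values were seen. Il9 had 57.4 and 31.2 FPM, a log2 ratio of -0.86 (-1.42 to -0.33), and Ctla4, an inhibitory receptor, 129 and 89.3, a ratio of -0.52 (-0.86 to -0.18). The Il9 promoter itself held 0 fragments in Th17 cells of both libraries. Entpd1, the ectoenzyme CD39, was higher in the tumor at 146 FPM against 98.8, a ratio of 0.56 (0.22 to 0.92), as was Tnfrsf18, the receptor GITR, at 124 against 87.3. Ifng was the only list gene called at 2-fold, at 20.9 FPM in the tumor against 9.19 in the cecum, a ratio of 1.11 (0.10 to 2.48) that rests on 49 and 8 fragments. Rgs1, a gene of tissue-resident T cells, was lower at 68.8 against 118 FPM, within the range of the other labels.

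**Figure D5:**
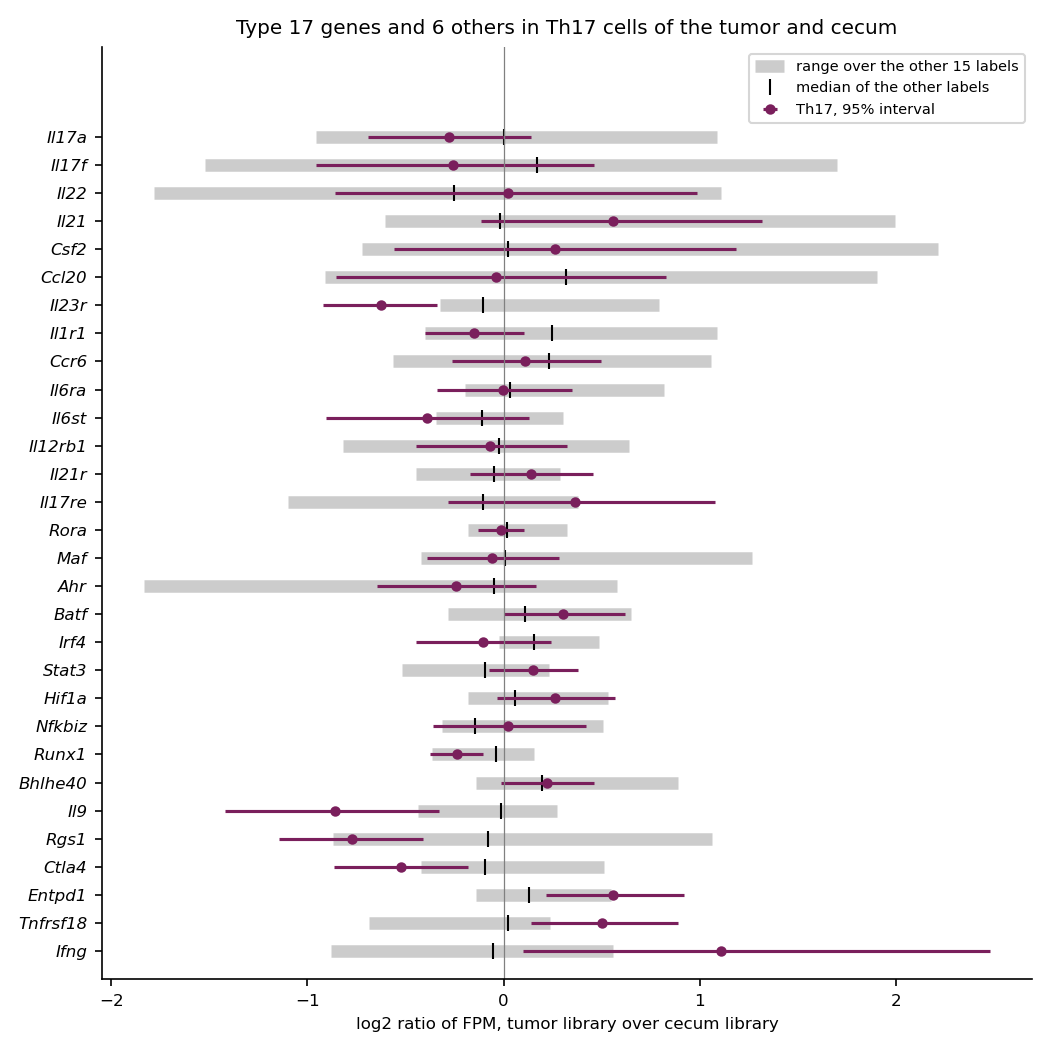
Log2 ratio of FPM, tumor over cecum, in Th17 cells (points, with exact 95% intervals) for type 17 cytokine, receptor and factor genes and 6 further list genes, with the range (grey) and median (tick) over the other 15 labels. Il17a, Il22 and Ccr6 have intervals that include 0, while Il23r at -0.63 and Il9 at -0.86 lie below the grey range and Ifng at 1.11 above it.

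Genes outside the lists that were highest in the tumor were Dscaml1 (12.6 and 56.4 FPM), Foxs1, Flrt1, Tff1, 1600014C23Rik, Agpat4, Cstf2 and Zfp758. Tff1, a trefoil peptide gene of mucous epithelium, had 17.2 and 54.7 FPM, and its fragments in the tumor came from 69 of 293 cells. Agpat4, an enzyme of phospholipid synthesis, had 58.6 and 134 FPM, a log2 ratio of 1.18 (0.76 to 1.65), and 14 of the other 15 labels had a ratio of the same sign. Of the 118 genes called in either direction, 83 had the sign of the median of the other labels, and 2 the same sign in all of them. The like share over all tested genes was not counted, so these counts do not set the called genes apart.

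The genes lower in the tumor rested in part on single cells of the cecum. Tll1 came first with 74.6 FPM in the cecum against 4.70 in the tumor, but 53 of its 65 fragments in the cecum (81.5%) were from 1 of the 131 cells. The same held for 23 of 27 fragments at Clstn2 (85.2%), 86 of 162 at Pitpnm2 (53.1%) and 20 of 40 at Sgcz (50%), in 1 cell for each gene. The cecum cells with the most fragments at Clstn2, Sgcz and Gfra1 all had the same depth, 15739 fragments. Those for Pitpnm2 and Opcml both had 16313, so 1 cell may serve several of these genes. Without the cell that held most fragments of the gene in each library, an alternative chosen after seeing the data, the log2 ratio was -1.49 at Tll1, 0.89 at Clstn2, -0.07 at Pitpnm2 and -0.81 at Sgcz, whereas at Dscaml1 it was 2.24. With 1 kb around gene ends as the window the ratio at Tll1 was 0.33, and without cells of over 3 times the median depth that at Pitpnm2 was 0.22. Without the top cell of each gene, the counts of called genes became 168 higher and 11 lower; removal of 1 cell takes a larger part of the 131 cells of the cecum than of the 293 of the tumor. Gfra1, Opcml, Pla2g2f and Samd11, the other genes named on this side, had 28.1%, 18.6%, 13.8% and 17.1% of their cecum fragments in 1 cell and were still called. All 8 genes named on each side against Rorgt gdT, IL10+ Treg and Mucosal Th1 were still called under the same removal.

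Among distal tiles, 397 of 15248 were higher in Th17 cells of the tumor (2.6%) and 451 lower (2.96%). The balance turned to more tiles higher under other choices, at 78 higher and 63 lower with at least 50 fragments, 453 and 402 with scaling by fragments near gene ends, and 433 and 375 in tiles of 1000 bp. Without cells of over 3 times the median depth it was 182 and 326. The 4 highest lay inside Arid3a, Myo3b and Reep3 and 18.5 kb from Sipa1l1, each with 0 or 1 cecum fragment against 27 to 37 from the tumor. The tile in Arid3a had 11.5 FPM in the tumor and 0 in the cecum, while Rorgt gdT had 14.8 for the cecum and 22.1 for the tumor. The 4 lowest lay inside Thada, Sergef and Rab11fip3 and 28.2 kb from Arap2, with 15 to 20 cecum fragments against 7 to 11 from the tumor. At these counts a tile is described by its fragments and not by a fold.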

How the data were processed

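The authors aligned the reads with Cell Ranger ARC 2.0.0 to mm10 and deposited, per tissue, a list of ATAC fragments with cell barcodes and read pair counts, and a table of cell labels that they set by clustering RNA profiles. They kept cells that passed limits on both RNA and ATAC quality, the latter on fragment number and enrichment at start sites. Each listed fragment was taken here as 1 count, whatever its number of read pairs. The cecum library held 66466111 fragments and the tumor library 96747563, of which 66.2% and 64.3% lay in labelled cells. Fragments of labelled cells from the autosomes and both sex chromosomes were assigned to 21887 protein-coding RefSeq genes plus Trdc, to 500-bp tiles and to promoters, a fragment counting once if either end lay in the window. Doublets were not called here, and 23 Th17 cells of the cecum and 33 of the tumor had more than 3 times the median fragments of their library.

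FPM values, exact Poisson intervals for levels, exact binomial (Clopper-Pearson) intervals for shares and exact conditional intervals for count ratios were computed with Python 3.11.15, numpy 2.4.6, pandas 2.3.3 and scipy 1.17.1, and the scripts were tested on simulated data. PCR and droplet losses are not covered by these intervals. Genes needed 50 fragments over both groups in each library and tiles 20. For each comparison the 8 highest and 8 lowest genes and the 4 highest and 4 lowest tiles among those called were named, ranked by the interval bound nearest to no difference, with the 10 genes and 6 tiles most accessible in Th17 cells, 3 tiles for each of 5 loci and any list gene. The members, gene lists and rules were chosen with earlier results of these data known. Alternatives changed the cells kept, window, scaling, minimum, fold, pseudocount and tile set. No leave-one-out was possible with 1 library per tissue. Results for certain items are not reported here.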

Additional observations from a re-analysis of the deposited data

Results flagged for a closer look

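Ctla4, an inhibitory receptor gene, was flagged because Th17 cells differed from Mucosal Th1 in opposite directions in the tissues. Th17 cells of the cecum had 129 FPM against 99.9 in Mucosal Th1, a log2 ratio of 0.36 (0.06 to 0.66), while those of the tumor had 89.3 against 112, a log2 ratio of -0.32 (-0.64 to -0.01). With 1 library per tissue the difference between these ratios was not tested.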

How the results depend on the processing

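No paired analysis was possible because each tissue had 1 library. Counts are given as higher and lower in Th17 cells over Rorgt gdT, IL10+ Treg and Mucosal Th1, and then in the tumor over the cecum. With 1 kb around gene ends as the window, genes called were 6 and 41, 17 and 34, 13 and 8, and 62 and 9, and 22 genes were most accessible in Th17 cells. In this window the log2 ratio reversed for Trat1 over IL10+ Treg in the cecum (-0.43), Krt28 over Mucosal Th1 in the cecum (-0.65), Olfr156 over Mucosal Th1 in the tumor (0.066) and Tll1 in the tumor over the cecum (0.33). When cells over 3 times the median depth of their library were removed, which leaves fewer fragments, genes higher were 80 over IL10+ Treg and 56 over Mucosal Th1, tiles were 83 and 300, 268 and 278, and 214 and 159, tiles higher in the tumor were 182, and Pitpnm2 reversed to 0.22 in the tumor over the cecum. With a minimum of 200 fragments, which tests fewer genes, calls were 10 and 42, 28 and 23, 31 and 9, and 4 and 1. With a minimum of 20, 202 genes were higher over IL10+ Treg, and 185 were higher and 89 lower in the tumor. At 1.5-fold, genes were 166 and 294, 338 and 193, 236 and 140, and 306 and 187, with 278 tiles higher over Rorgt gdT and 722 lower in the tumor. With a pseudocount of 5 FPM, 39 genes were lower over IL10+ Treg and 52 higher in the tumor. Tiles outside gene spans were 67 and 141, 167 and 172, 125 and 97, and 113 and 135, and with at least 50 fragments 20 and 108, 107 and 178, 83 and 36, and 78 and 63. The balance of tiles in the tumor over the cecum turned there, and also with scaling by fragments near gene ends (453 and 402) and in 1000-bp tiles (433 and 375). Among CD4+ labels the Th17 share was 4.26% and 9.57%. Without the cell holding most fragments of a gene, chosen after seeing the data, 168 genes were higher and 11 lower in the tumor. Where no construction is named the cause was not tested.

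Of 174 alternative values of main results, 61 moved by over 1.5 times or their interval and 113 did not, and of 998 for single genes and tiles 110 moved and 5 reversed. Keeping only cells with at least 1000 fragments, scaling by fragments near gene ends, 2 kb windows, 1000-bp tiles and tiles over 5 kb from gene ends moved no main result by over 1.5 times or its interval. Depth limits low genes: Il22 had 15 fragments in Th17 cells of the cecum.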
